A study of Mus musculus with 3 samples.

Results

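Expression of 9 genes of GABA synthesis, storage, breakdown and uptake and of the glutamine supply was measured in cultured cells of the medial ganglionic eminence (MGE), an embryonic ventral forebrain region from which many cortical and striatal interneurons come. The genes were Gad1, Gad2, Slc32a1, Abat, Aldh5a1, Slc6a11, Slc6a13, Slc38a1 and Glul. They were chosen by name for their role in the pathway, with earlier results of these data known. Their probe sets were those whose only gene symbol in the array's probe table is the symbol of a member. All 9 genes were found, among 22180 genes with such a probe set. They had 12 probe sets, of which Slc32a1, Abat and Glul had 2 each. RNA came from 3 cultures of wild-type CD-1 mouse MGE taken at embryonic day 13, labelled as biological replicates, and they form a single group. All 3 had FGF2 at 40 ng/ml, a growth factor that keeps neural progenitors dividing, and then AraC at 1 µM for 24 h from day 5, a nucleoside analogue that kills cells copying their DNA. All also had glutamine at 500 µM and B27, a serum-free supplement for neurons, at 2%. RNA was taken 2 days after the AraC was washed out. The labels call the cells purified interneurons and give no other group, and each array read a whole culture, so the cells that made a transcript were not identified. The labels do not say whether the cultures came from separate litters. Fewer cells of a type and less RNA per cell of that type cannot be told apart in such data.

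GABA is the main inhibitory transmitter of the forebrain. It is made from glutamate by glutamate decarboxylase, loaded into synaptic vesicles, released, taken back up by carriers of neurons and glia, and broken down through succinic semialdehyde to succinate, which enters the citric acid cycle. Astrocytes turn transmitter glutamate into glutamine, which is handed to neurons and there turned back into glutamate, the source of new GABA.

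Of the 9 genes, 8 gave signal above background and 1, Slc6a13, did not. The 8 were Gad1, Gad2, Slc32a1, Abat, Aldh5a1, Slc6a11, Slc38a1 and Glul. Values are RMA log2 signals. Background was the 95th percentile, 6.26, of the mean signal of 1440 probe sets of sensory receptor genes (the olfactory, vomeronasal and bitter taste families), taken as not in use in this tissue, and a gene was called when limma's moderated test, one-sided, put its mean above that line at an adjusted p under 0.05. Of the 20751 genes tested in this way, 63.4% were called, so a call by itself is common. With the line raised by 1 log2 unit the count was again 8 of 9, against 47.6% of all genes tested. Binding strength varies from probe set to probe set, so the level of a gene was not set against that of another gene, and no order of levels between the 9 genes is given. The plot of signal by culture shows the 9 genes against the line.

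**Figure D1:**
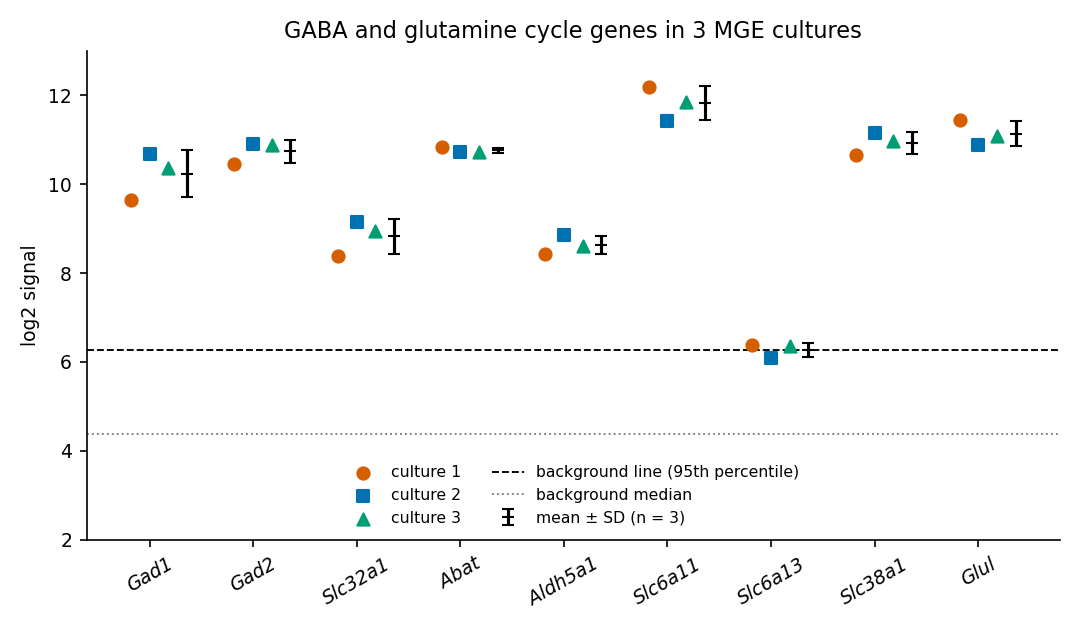
Log2 signal of the 9 genes (vertical axis) in each of the 3 cultures, with the mean ± SD to the right of each group of points, the background line at 6.26 (dashed) and the background median at 4.37 (dotted). All genes lie more than 2 log2 units above the line in every culture but for Slc6a13, which lies on it.

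Gad1 and Gad2 encode the forms of glutamate decarboxylase. The Gad1 enzyme is found throughout the cell, and the Gad2 enzyme is enriched at nerve terminals. Gad1 read 9.64 in culture 1, 10.67 in culture 2 and 10.37 in culture 3 (10.23 ± 0.53, SD, n = 3; limma adjusted p = 5.07e-05). Culture 1 was thus the low one, and the highest culture was 2.04-fold over it on the linear scale. Gad2 read 10.44, 10.90 and 10.88 in cultures 1, 2 and 3 (10.74 ± 0.26; adjusted p = 4.01e-06). Here too culture 1 was low, while cultures 2 and 3 lay close together, and the highest was 1.37-fold over the lowest. Taken within each culture, the log2 difference Gad1 minus Gad2 departed from its own mean by -0.29 in culture 1, 0.29 in culture 2 and 0.01 in culture 3. Gad1 was thus low relative to Gad2 in culture 1 and high relative to it in culture 2, each read by 1 probe set, and single cultures allow no test of this.

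Slc32a1 encodes the vesicular GABA transporter, which loads GABA into synaptic vesicles. It read 8.39 in culture 1, 9.16 in culture 2 and 8.95 in culture 3 (8.83 ± 0.39; adjusted p = 8.99e-05). The order of the cultures was that of Gad1, and the highest was 1.70-fold over the lowest. The other Slc32a1 probe set gave a dimmer signal of 7.04, 7.24 and 7.12 (7.13 ± 0.10), with the same order and a smaller range of 0.21. It was above the line but not above it by 1 log2 unit. The difference Gad1 minus Slc32a1 departed from its mean by at most 0.15 in any culture.

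Gad1, Gad2 and Slc32a1 share an order over the cultures with Aldh5a1, Slc38a1 and 35.1% of all genes above background. The sequences just before the transcription starts of these 3 genes of GABA synthesis and vesicle loading are shown. They are RefSeq sequences of build GRCm38.p6, 250 bases each, all on the plus strand, for Gad1 at chr2:70561879-70562128, Gad2 at chr2:22622077-22622326 and Slc32a1 at chr2:158610508-158610757. Capitals mark matches to the homeodomain core TAATTA, the TATA box TATAAA, the GC box GGGCGG or the cAMP response element core TGACG on either strand.
Gad1: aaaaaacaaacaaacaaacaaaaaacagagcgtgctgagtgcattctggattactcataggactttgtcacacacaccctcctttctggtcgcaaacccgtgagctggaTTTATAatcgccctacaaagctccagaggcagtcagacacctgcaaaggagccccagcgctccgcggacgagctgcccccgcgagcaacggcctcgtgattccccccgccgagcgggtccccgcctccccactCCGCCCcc
Gad2: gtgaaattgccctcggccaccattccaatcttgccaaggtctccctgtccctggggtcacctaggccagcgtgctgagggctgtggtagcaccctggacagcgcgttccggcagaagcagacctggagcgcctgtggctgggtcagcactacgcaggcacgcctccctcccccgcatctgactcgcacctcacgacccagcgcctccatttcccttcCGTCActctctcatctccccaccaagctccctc
Slc32a1: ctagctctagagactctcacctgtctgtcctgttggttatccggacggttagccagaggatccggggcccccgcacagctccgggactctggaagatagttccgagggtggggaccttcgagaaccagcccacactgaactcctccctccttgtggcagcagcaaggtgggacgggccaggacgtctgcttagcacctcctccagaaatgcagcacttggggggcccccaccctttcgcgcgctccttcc
Gad1 held a TATA box match (TTTATA) that begins 141 bases before the start and a GC box match (CCGCCC) that begins 8 bases before it. Gad2 held a match to the cAMP response element core (CGTCA) that begins 33 bases before the start. Aldh5a1, whose window is not printed, also held CGTCA, at 228 bases. Slc32a1 held none of the 4. Over all 32851 RefSeq promoter windows of this length, 12.4% held TATAAA, 32.7% GGGCGG, 17.8% TGACG and 4.84% TAATTA. No marked motif was found in all 3 windows. The bases of the windows were rich in G and C (58% in Gad1, 64% in Gad2 and 62.4% in Slc32a1, against a median of 52.4% over all windows). A match is a description of the letters and not a site of binding.

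Abat encodes GABA transaminase, the mitochondrial enzyme that begins the breakdown of GABA. It read 10.83 in culture 1 and 10.73 in both culture 2 and culture 3 (10.76 ± 0.06; adjusted p = 1.37e-06). The 3 cultures were within 0.10 log2 units of each other, a 1.07-fold range, the narrowest of the 9 genes. The other Abat probe set read 6.89, 7.04 and 6.74 (6.89 ± 0.15), above the line but not by 1 log2 unit, and placed culture 2 highest, so the 2 probe sets gave different orders.

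Aldh5a1 encodes succinic semialdehyde dehydrogenase, which completes the breakdown of GABA to succinate. It read 8.43 in culture 1, 8.85 in culture 2 and 8.62 in culture 3 (8.63 ± 0.21; adjusted p = 1.77e-05). Culture 1 was lowest and culture 2 highest, as for Gad1, with a 1.33-fold range.

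Slc6a11 encodes a plasma membrane GABA carrier that in the adult brain is found mainly on astrocytes. It read 12.19 in culture 1, 11.42 in culture 2 and 11.84 in culture 3 (11.82 ± 0.38; adjusted p = 5.94e-06). The order was the reverse of that of Gad1, with culture 1 highest, 1.70-fold over culture 2. Slc6a13, a related GABA carrier known from the meninges, liver and kidney, read 6.38, 6.09 and 6.35 (6.27 ± 0.16; adjusted p = 0.665). Its mean lay 0.01 above the line, cultures 1 and 3 were over it and culture 2 was under it, and it was called at the 90th percentile of the background probe sets (adjusted p = 0.00343), where 72.5% of all genes tested were, and under no other alternative. Of 8 markers of meningeal fibroblasts and pericytes, cells of the brain's coverings and vessels, 4 were above the line and none by 1 log2 unit. Col1a1, a fibrillar collagen, was among the 4 at 7.22 ± 0.22, and Col1a2, its partner chain, read 6.28 ± 0.20 and did not pass (adjusted p = 0.616).

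Slc38a1 encodes a sodium-coupled carrier that takes glutamine into neurons. It read 10.66 in culture 1, 11.14 in culture 2 and 10.97 in culture 3 (10.92 ± 0.24; adjusted p = 3.23e-06), in the order of Gad1 and with a 1.39-fold range. Glul encodes glutamine synthetase, the enzyme that makes glutamine from glutamate and ammonia and that in brain is found in astrocytes and in some cells of the oligodendrocyte lineage. It read 11.44, 10.88 and 11.08 (11.14 ± 0.28; adjusted p = 4.03e-06), with culture 1 highest and culture 2 lowest, a 1.48-fold range. The glutamine carrier and the glutamine-making enzyme thus stood in opposite orders. The other Glul probe set read 7.18, 6.84 and 6.71 (6.91 ± 0.24), with culture 1 highest again but culture 3 lowest, and was above the line but not by 1 log2 unit.

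The windows before the starts of Slc6a11 (chr6:114130991-114131240) and Glul (chr1:153899679-153899928) are shown in the same way, and both lie on the plus strand. These genes had the opposite order, as did Slc6a13, Abat by its brighter probe set, and 17.7% of all genes above background. The windows of Slc6a13 are not printed, and 1 of them held 2 GC box matches.
Slc6a11: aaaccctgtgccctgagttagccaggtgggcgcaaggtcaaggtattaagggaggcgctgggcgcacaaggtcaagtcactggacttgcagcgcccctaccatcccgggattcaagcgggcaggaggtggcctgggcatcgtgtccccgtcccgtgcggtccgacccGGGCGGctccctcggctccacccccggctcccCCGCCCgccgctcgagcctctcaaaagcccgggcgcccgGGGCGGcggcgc
Glul: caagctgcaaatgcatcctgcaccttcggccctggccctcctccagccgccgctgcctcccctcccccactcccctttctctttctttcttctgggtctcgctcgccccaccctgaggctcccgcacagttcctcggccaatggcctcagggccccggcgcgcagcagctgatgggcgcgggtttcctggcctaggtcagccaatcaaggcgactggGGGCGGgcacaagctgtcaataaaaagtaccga
Slc6a11 held 3 matches to the GC box, which begin 83, 51 and 12 bases before the start, and Glul held 1, which begins 33 bases before it. Glul also held the CCAAT box (CCAAT, not capitalised) at 113 and 50 bases, a motif present in 33.8% of all windows, and Gad2 held it at 226 bases. The E-box CANNTG was in all 5 windows printed and in 66.2% of all windows. Slc6a11 had 71.2% G and C and 25 CpG dinucleotides, against a median of 6 over all windows. No matches of different motifs overlapped among the 26 found in the windows of the 7 genes with a RefSeq window.

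Across the 9 genes, 5 were lowest in culture 1 and highest in culture 2 (Gad1, Gad2, Slc32a1, Aldh5a1 and Slc38a1) and 4 were the reverse (Abat, Slc6a11, Slc6a13 and Glul). The place of Abat is weak, since it read 10.73 in both culture 2 and culture 3. Its other probe set was highest in culture 2, and the other Glul probe set was lowest in culture 3. Of the 8 genes above background 5 had the first order and 3 the reverse, against 35.1% and 17.7% of all genes above background, and 3 cultures of a single group allow no test between cultures. The order of the lowest and the highest culture was the same after quantile normalization and after median centring for all but Abat, whose lowest culture became culture 3 after median centring. The median deviation of the 9 genes from their own means was -0.20 in culture 1, 0.16 in culture 2 and 0.04 in culture 3, against -0.01, 0.02 and -0.01 over all genes tested. That median hides the split. Gad1 and Slc32a1 stood at -0.59 and -0.44 in culture 1, while Slc6a11 and Glul stood at 0.37 and 0.31.

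**Figure D2:**
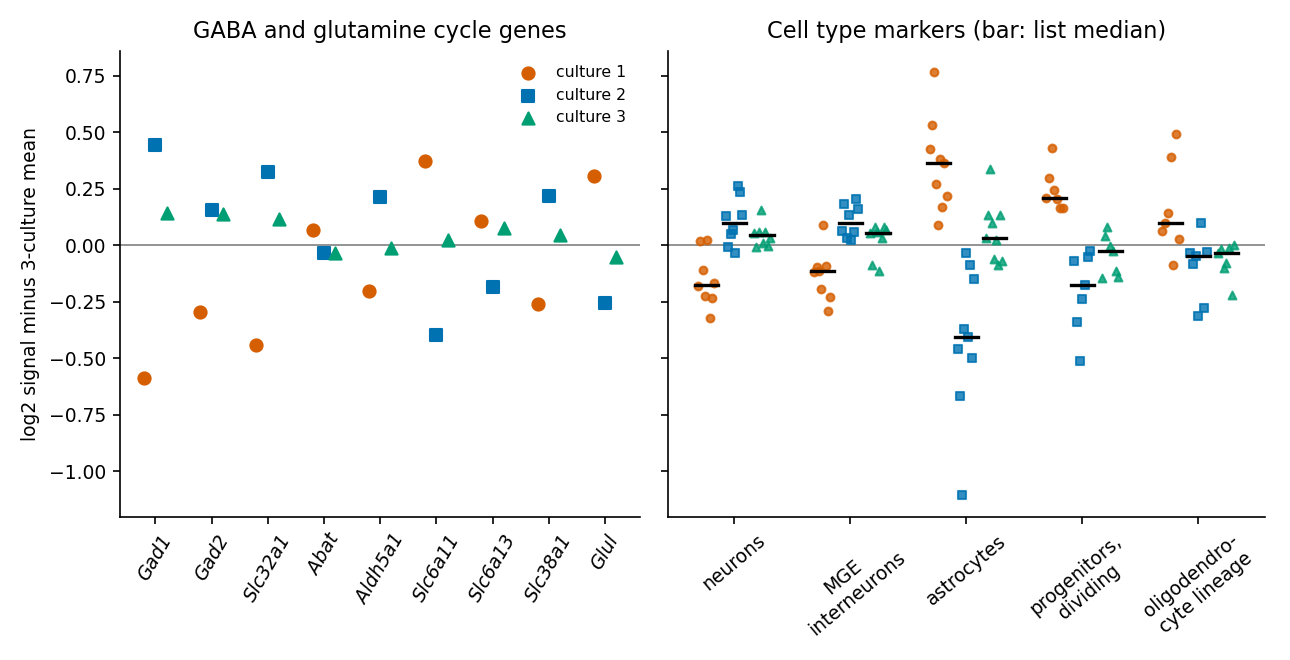
Deviation of the log2 signal from the mean of the 3 cultures (vertical axis), for the 9 genes at left and for the genes of 5 cell type marker lists at right, where each point is a gene and each bar the list median in that culture. Gad1, Gad2, Slc32a1, Aldh5a1 and Slc38a1 are low in culture 1 as most neuronal and MGE markers are. Slc6a11 and Glul are high there, as are the astrocyte markers, the progenitor markers and most oligodendrocyte lineage markers.

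Several lists of cell type markers differed between the cultures too. Of all 13155 genes above background, 5754 were lowest in culture 1, 3270 in culture 2 and 4131 in culture 3. Highest in cultures 1, 2 and 3 were 4262, 6848 and 2045 of them. All 8 markers of MGE interneurons were above the line, Lhx6 (10.21 ± 0.10) and Nkx2-1 (9.16 ± 0.16), transcription factors of this lineage, among them, and 7 of the 8 were lowest in culture 1. The summed linear signal of the list was 18351, 22256 and 21107 in cultures 1, 2 and 3. All 8 general neuronal markers were above the line, Tubb3 (11.79 ± 0.16) and Dcx (11.64 ± 0.02), parts of the neuronal cytoskeleton, among them, and their sum was 31227, 36841 and 36226, with 6 of the 8 lowest in culture 1. These sums are lowest where Gad1, Gad2 and Slc32a1 were lowest.

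Astrocyte markers were highest in culture 1. Of the 9, 7 were above the line, and Gjb6, a gap junction protein, and S100b, a calcium-binding protein, were not. S100b did pass at the 90th percentile (adjusted p = 0.00473), after quantile normalization (0.0467), after median centring (0.0460) and without culture 2 (0.0219), and Gfap, an astrocyte filament protein counted among the 7, did not pass without culture 1 (0.0888) or culture 3 (0.100). All 9 were highest in culture 1. In culture 2, 7 of the 9 were lowest, while Sox9, a glial transcription factor, read 11.39 in both culture 2 and culture 3, and Gjb6 was lowest in culture 3. For the list the summed linear signal was 11498, 7629 and 9216. Aldh1l1, a folate enzyme used as an astrocyte marker, read 10.69, 9.80 and 10.30, and Aqp4, the astrocytic water channel, 8.74, 7.53 and 8.34. All 7 markers of progenitors and dividing cells were above the line and highest in culture 1 (sum 20166, 14494 and 16813), Nes (9.35 ± 0.19) and Sox2 (11 ± 0.32) among them. The oligodendrocyte lineage list (7 of 7 measured above the line) was less spread in its sum, at 10559, 9265 and 9379, with Pdgfra at 11.45 ± 0.06 and Olig1 at 11.74 ± 0.09. In this list 6 of the 7 were highest in culture 1, 5 were lowest in culture 2, and 1 had the order of Gad1. Sox10 read 8.94, 8.23 and 8.47 (SD 0.36) and Mbp 8.68, 7.91 and 7.97 (SD 0.43), wider than Pdgfra and Olig1. Of 6 endothelial markers 5 were above the line, Pecam1 (6.52 ± 0.14) and Cdh5 (6.81 ± 0.27) among them, and of 6 microglial markers 3 were, without Csf1r (6.36 ± 0.12) and Itgam (5.76 ± 0.15), and none of either list was above it by 1 log2 unit. With a culture left out, calls were lost for Pecam1 (adjusted p = 0.0714 without culture 1, 0.216 without culture 2), Cldn5 (0.0802 without culture 1, 0.116 without culture 3) and Emcn (0.0718 without culture 1, 0.0945 without culture 2) of the endothelial list. Of the microglial list they were lost for Aif1 (0.0849 without culture 2, 0.0593 without culture 3) and P2ry12 (0.0694 without culture 3). The endothelial sum was lowest in culture 3, at 646, 638 and 574, with 4 of 6 markers lowest there, and 5 of the 8 meningeal and pericyte markers were highest in culture 3 (sum 713, 688 and 722), so these lists had neither order. The part of these cell types in the differences between cultures was not tested.

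Set against the marker lists, the members differed in how closely they followed them. The deviation of Slc6a11 less the median deviation of the 7 astrocyte markers above background ranged over 0.08 log2 units across the 3 cultures, and that of Glul over 0.29. Against the 7 progenitor markers Glul ranged over 0.17, less than against astrocyte markers. The deviation of Gad2 less the median of the 8 MGE markers ranged over 0.26, that of Slc38a1 over 0.26, that of Aldh5a1 over 0.20, that of Slc32a1 over 0.55 and that of Gad1 over 0.82. Against the 8 general neuronal markers the ranges were 0.22 for Gad2, 0.21 for Slc38a1, 0.17 for Aldh5a1, 0.49 for Slc32a1 and 0.76 for Gad1, each a little lower than against MGE markers. Gad1 was lower than the MGE median deviation by 0.47 in culture 1 and higher by 0.34 in culture 2. For Abat the range was 0.32 against MGE markers and 0.74 against astrocyte markers, and it was lowest, at 0.042, against the 7 oligodendrocyte lineage markers. Abat varied little and so did that list, whose median deviations were 0.10, -0.05 and -0.03. Against the microglial and the meningeal and pericyte lists the Abat range was 0.14 and 0.15. Only the brightest probe set of each gene was set against the lists. The other Abat probe set, which gave another order, was thus left out. So was that of Slc32a1, whose range over the cultures was 0.21 against 0.76 for the brightest. The other Glul probe set, with culture 3 lowest, was left out too. How closely Slc32a1, Abat and Glul follow a list may therefore depend on the probe set. These are descriptions of 3 cultures and carry no test.

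By the brightest probe set of each gene, the spread between cultures was wide for the level in 7 of the 8 genes above background. Abat was the exception. The median SD over the 3 cultures was 0.26 log2 units for the 9 genes, against 0.13 over all genes tested. Among the 200 genes above background nearest to it in level, 99% had a lower SD than Gad1, 98% than Slc32a1, 98.5% than Slc6a11, 94% than Gad2 and Glul, 91% than Slc38a1 and 79% than Aldh5a1. For Abat the share was 27.5%. The dimmer probe sets were not ranked. Their SDs were 0.10 for Slc32a1, 0.15 for Abat and 0.24 for Glul. That of Slc32a1 had a range of 0.21, so its wide spread was seen in 1 of its 2 probe sets. Slc6a13 is left out, because genes near the line are called only when their SD is low. A range of more than 0.7 log2 units was found for 3 of the 8 genes above background (Gad1, Slc32a1 and Slc6a11), against 4.69% of all genes above background, and a range of more than 1 for 1 of them, Gad1, against 1.32%. The median SD of the members was lowest without culture 1, at 0.15, compared with 0.25 without culture 2 and 0.34 without culture 3.

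**Figure D3:**
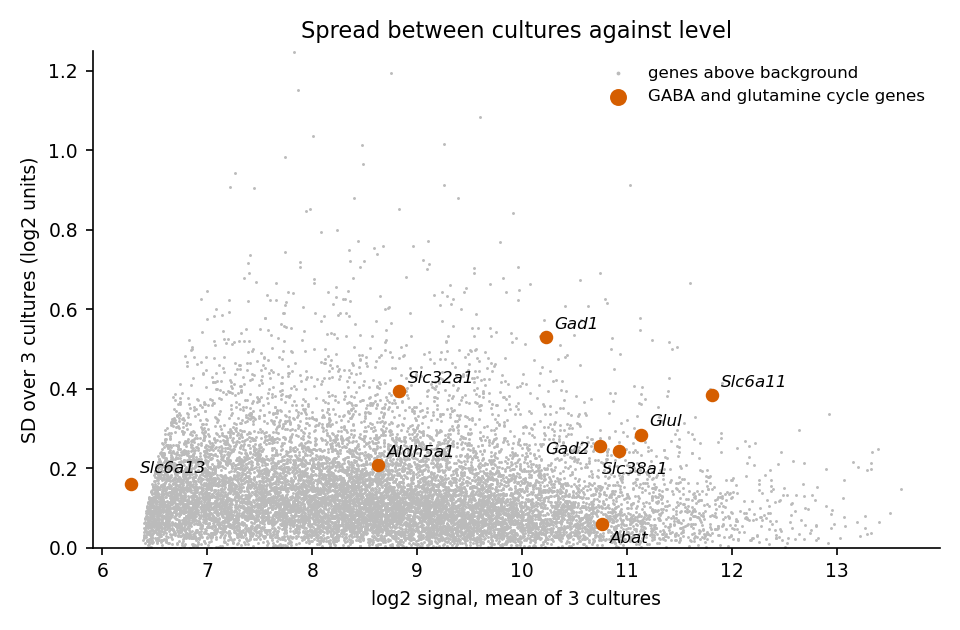
SD over the 3 cultures (vertical axis, log2 units) against mean log2 signal (horizontal axis) for all genes above background (grey) and the 9 genes (orange). Gad1 at 0.53, Slc32a1 at 0.39 and Slc6a11 at 0.38 lie in the upper part of the cloud for their level, and Abat at 0.06 in the lower part. Each gene is shown by its brightest probe set.

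The genes whose values over the 3 cultures lay nearest to those of Gad1, after each gene's mean was taken off, were sought among 2972 genes above background with an SD of at least 0.2. The nearest 5 were Slit2, an axon guidance ligand (root mean square difference 0.012), Klhl14, a kelch family protein (0.017), Sstr2, a somatostatin receptor (0.020), Il1rapl1, a synaptic adhesion protein (0.022), and Penk, the enkephalin precursor (0.022). Slc32a1 ranked 144th at 0.11, Gad2 783rd at 0.24 Slc38a1 784th at 0.24 and Aldh5a1 1284th at 0.27. For Glul the nearest were Kcna4, a potassium channel subunit (0.0050), Llgl1, a cell polarity protein (0.011), Hsd17b11, a lipid droplet enzyme (0.011), Defa40, a defensin (0.011), and Plcg2, a phospholipase (0.012), and Slc6a11 ranked 420th at 0.099. With 3 cultures many genes share any given order, so these distances are descriptions. Klhl14 (without culture 2 or 3), Plcg2 (without culture 3) and Defa40 (without any of the 3) lost their own calls when a culture was left out.

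Other genes of the pathway were taken from lists by role. Of 47 genes listed, 43 were measured, and 35 of these (81.4%) were above background, against 63.4% of all genes tested. With a margin of 1 log2 unit the count was 28, against 47.6% of all genes tested. The lists were chosen with earlier results of these data known, so these shares are descriptions and carry no test. The other 4 listed genes were not analysed here.

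Of the other GABA uptake carriers, Slc6a12, the betaine and GABA carrier, read 6.60 ± 0.05 and was above the line (adjusted p = 0.00231) but not by 1 log2 unit. Slc6a6, the taurine carrier, read 9.78 ± 0.20 and was lowest in culture 1. Among glutamine carriers, 4 of 5 were above the line. Slc38a2, a carrier of neurons and other cells, read 10.71 ± 0.09, and Slc38a3, which in brain passes glutamine out of astrocytes, read 10.93, 9.90 and 10.66 in cultures 1, 2 and 3, the order of Glul with a 2.04-fold range. Slc38a5, another glutamine carrier, read 5.98 ± 0.19 and was not above the line.

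Glutamate, the substrate of the decarboxylases, is also made by dehydrogenase and aminotransferases. Of 5 such enzymes measured, 4 were above the line. Glud1, glutamate dehydrogenase, read 11.28, 10.76 and 11.13, highest in culture 1, and Got1, the cytosolic aspartate aminotransferase, read 10.73, 11.23 and 11.01, lowest there. Gpt, an alanine aminotransferase, read 6.12 ± 0.17 and was not above the line. All 4 mitochondrial glutamate carriers were above it. Slc25a22, which carries glutamate into mitochondria, read 9.19, 10.17 and 9.59, lowest in culture 1 with a 1.97-fold range. Slc25a12 and Slc25a13, the aspartate and glutamate exchangers, read 11.31 ± 0.15 and 6.97 ± 0.19, the latter not above the line by 1 log2 unit.

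Of the plasma membrane glutamate carriers, 4 of 5 were above the line. Slc1a3, an astrocyte and radial glia carrier, read 11.92, 11.36 and 11.49, highest in culture 1. Slc1a2, the main carrier of mature astrocytes, read 7.85 ± 0.12, and Slc1a1, a neuronal carrier, read 11.06 ± 0.11. Slc1a7, a retinal carrier, read 6.45 ± 0.30 and did not pass (adjusted p = 0.169), but did without culture 2 (0.0297). Of the vesicular glutamate carriers, among which Slc17a6 and Slc17a7 mark glutamatergic neurons, 1 of 3 was above the line. Slc17a7 read 6.11, 7.22 and 6.63 (adjusted p = 0.122) and Slc17a6 read 6.11, 7.01 and 6.07 (adjusted p = 0.433), both highest in culture 2, as was Gad1. Without culture 1, Slc17a7 passed (adjusted p = 0.0410). Slc17a8 read 6.80 ± 0.03 and was above the line but not by 1 log2 unit. Of 4 measured markers of cortical glutamatergic neurons, all transcription factors, 1 was above the line, against 63.4% of all genes tested. It was Neurod2, at 7.14 ± 0.16, which was not above it by 1 log2 unit. Neurod6 (5.84 ± 0.39), Tbr1 (6.01 ± 0.22) and Emx1 (6.30 ± 0.19) were not above the line. Neurod6 read 5.63, 6.28 and 5.60 and Tbr1 5.87, 6.27 and 5.89, both highest in culture 2. The other 2 were highest in culture 3, and the summed linear signal of the list was 300, 380 and 352.

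The decarboxylases need pyridoxal phosphate, a form of vitamin B6. Pdxk, the kinase that makes it, read 9.68, 10.20 and 9.86, and Pdxp, the phosphatase that removes it, read 9.18, 9.59 and 9.42. Both were above the line, with the order of Gad1. Past the transaminase, succinic semialdehyde may instead be reduced to gamma-hydroxybutyrate. Akr7a5 (8.19 ± 0.05) and Akr1a1 (11.76 ± 0.04), reductases that act on it, varied little, whereas Adhfe1, which oxidises gamma-hydroxybutyrate, read 10.01, 9.15 and 9.56, highest in culture 1. The 5 enzymes around succinate and ketoglutarate were all above the line, with Suclg1 at 8.14 ± 0.13, Sucla2 at 9.67 ± 0.10 and Suclg2 at 9.69 ± 0.19 (1 of 2 Suclg2 probe sets called), all subunits of succinyl-CoA ligase.

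GABA can also be made from putrescine. Of 5 genes of that route 4 were above the line and 2 by 1 log2 unit. Odc1, which makes putrescine, read 9.93 ± 0.21 and Aldh9a1, an aldehyde dehydrogenase that can make GABA from its aldehyde, read 10.31 ± 0.13. Maob, monoamine oxidase B, read 6.85 ± 0.16 and was above the line but not by 1 log2 unit, and Aoc1, diamine oxidase, read 4.93 ± 0.17 and was not above it. Of the 5, 4 were highest in culture 1, as were 6895 of the 20751 genes tested. Among enzymes related to the decarboxylases, Csad, which makes hypotaurine, read 8.09 ± 0.16 and was called. Ddc, aromatic amino acid decarboxylase, read 6.44 ± 0.03 and was called (adjusted p = 0.0197), though not without culture 2 (0.110) or without culture 3 (0.0673). Gadl1, a Gad-like enzyme, read 6.26 ± 0.15 (adjusted p = 0.759) and Hdc, which makes histamine, read 5.21 ± 0.06, and neither was above the line.

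**Figure D4:**
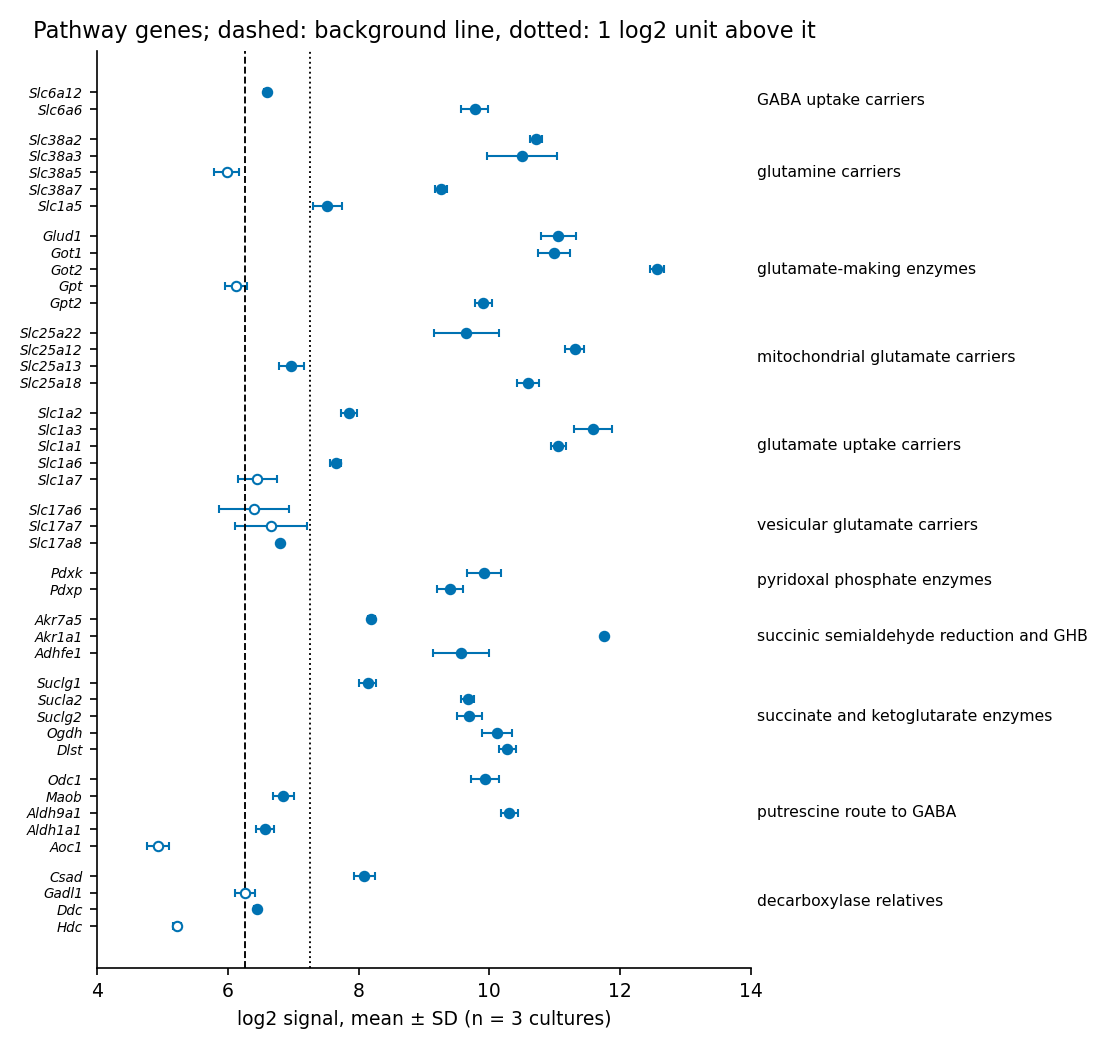
Mean log2 signal ± SD over the 3 cultures (horizontal axis) for the 43 measured pathway genes, grouped by role, with filled points for genes above background and open points for the others, the background line at 6.26 (dashed) and the line 1 log2 unit above it (dotted). The 8 open points are Slc38a5, Gpt, Slc1a7, Slc17a6, Slc17a7, Aoc1, Gadl1 and Hdc.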

How the data were processed

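RNA from 3 cultures was hybridised to 1-colour Affymetrix arrays, 1 per culture, from 100 ng of total RNA labelled with biotin. The deposited values are 1 log2 signal per probe set and culture for 41345 probe sets, made by the authors with oligo and RMA per the submitters' processing notes. For these tools, versions and settings were not given in the sources used here. Arrays give no read depth, and their number limits the precision. The medians of the arrays were 6.57, 6.52 and 6.56. Probe sets were named from the platform's probe table, where 23521 had a single symbol, and all 9 members had the same symbol in the RefSeq table of GRCm38.p6 by gene identifier.

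Of these probe sets, 1440 of receptor families served as background and the other 22081 were tested with limma 3.58.1 in R 4.3.3 (intercept only, moderated test, one-sided, Benjamini-Hochberg adjustment over all tested, 2.13 prior degrees of freedom). A gene with several probe sets was called if any was, and its brightest probe set by mean gives the printed value. The fit was tested on simulated data. The 12 alternatives were other percentiles, a margin of 1, every culture above the line, an intensity trend, quantile normalization, median centring, a filter on dim probe sets, the mean of probe sets, and each culture left out.

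The members and lists were chosen with earlier results of these data known, and no list was given a test of its own. Genes named are the members, the first 3 genes of each pathway list and every pathway gene not above background, the first 2 of each marker list, and the 5 genes nearest to Gad1 and to Glul. Others were named to complete a count or to show a spread, after their values were seen.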

Additional observations from a re-analysis of the deposited data

How the results depend on the processing

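No paired analysis was possible because the series has a single group. The calls of the 8 members above background held under all 12 alternatives. The count of members was 9 at the 90th percentile, where Slc6a13 passed, and 8 under the other alternatives, including each culture left out. The count of pathway genes was 35, and ran from 28 (margin of 1) and 29 (99th percentile) to 40 (90th percentile), and was 36, 34 and 34 without cultures 1, 2 and 3. Over all genes tested it ran from 9880 with a margin of 1 to 15050 at the 90th percentile, against 13155, and from 12635 to 12965 with a culture left out. The median SD of the members, 0.26, was 0.25 after quantile normalization, 0.27 after median centring and 0.25 with the mean of probe sets, and ran from 0.15 to 0.34 with a culture left out, the lowest without culture 1. An SD of 2 cultures tends to be lower than that of 3. Of the 43 pathway genes 12 changed their call under some alternative, 7 of them lost with a margin of 1 or at the 99th percentile and 5 gained at the 90th. Signal near background limits what can be said of Slc6a13, Slc6a12, Maob and the vesicular glutamate carriers.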
